A study of Mus musculus with 9 samples.

Results

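Kctd12, its 3 relatives Kctd8, Kctd12b and Kctd16, the GABA-B receptor subunit genes Gabbr1 and Gabbr2, and the GIRK channel genes Kcnj3, Kcnj5, Kcnj6 and Kcnj9 were followed in sorted mouse midbrain dopamine (DA) neurons with 0, 1 or 2 floxed alleles of Dot1l. These 10 genes were found by symbol among the 47729 genes of the deposited tables, and all 10 were among the 17988 genes that passed the filter on low counts. Kctd12 was chosen by its measured values, as the gene with the smallest p-value when both alleles of Dot1l were floxed against none, and the other 9 genes were taken as its family and known partners. Its values in that contrast are therefore a description, with no test.

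GABA-B receptors are metabotropic receptors for the inhibitory transmitter GABA. The subunit encoded by Gabbr1 binds GABA, and that of Gabbr2 carries the partner to the cell surface and couples to G proteins of the Gi/o class. The G beta-gamma dimers that are released open G protein-gated inwardly rectifying potassium (GIRK) channels, which hyperpolarise the neuron. KCTD8, KCTD12, KCTD12B and KCTD16 are auxiliary subunits that bind the tail of the Gabbr2 protein, and KCTD12 is known for making the receptor response desensitise quickly. In adult midbrain DA neurons the product of Kcnj6 is known as a main part of the GIRK channels, with that of Kcnj9 in some of these neurons. Dot1l encodes the enzyme that methylates lysine 79 of histone H3.

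RNA was sequenced from E15.75 embryos of strain C57/Bl6. All embryos carried 1 copy of Cre driven from the Pitx3 locus, so that recombination is limited to cells with Pitx3 activity, and a Rosa-lox-stop-lox-YFP reporter. YFP-positive midbrain cells were sorted by FACS. The groups were wt, with Dot1l(+/+), Het, with 1 floxed allele (Dot1l(fl/+)), and KO, with both alleles floxed (Dot1l(fl/fl)), and the floxed segment is exon 5 alone. Each library was a pool of embryos per the study's methods, with 3 wt, 3 Het and 2 KO libraries, and KO library 3 was not analysed here.

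The libraries held between 13616922 and 43674673 counts, and those labelled KO were the shallowest. Dot1l itself was at 105.2, 84.6 and 94.6 CPM (counts scaled to library size by TMM) in wt and at 75.5, 65.6 and 76.2 CPM in Het. It was at 64.9 CPM in the library labelled KO 1 and at 99.1 CPM in the library labelled KO 2, within the range of wt. A count over the whole gene covers all exons, so it is a weak check of a deletion of exon 5, and the label of that library could not be checked further. Markers of DA neurons were high in every library, with Th between 649.5 and 1047 CPM and Slc6a3, the dopamine transporter, between 606.9 and 826 CPM. The summed level of 10 DA markers was 5831 to 6702 CPM in wt, 5824 to 6245 CPM in Het and 4674 to 5652 CPM in the libraries labelled KO. That of 7 markers of GABAergic neurons was 203.6 to 226.3, 196.7 to 233.6 and 236.4 to 264.9 CPM in the same order. The first sum was lower and the second higher in both libraries labelled KO than in any other library, but not every marker followed. Of the 10 DA markers, 3 (Th, Ddc and En1) were below all other libraries in both, while Slc6a3 at 826 CPM and Pitx3 at 237.4 CPM were highest in KO 1. Of the 7 GABAergic markers, only Slc32a1 was above all others in both, at 156.0 and 129.3 CPM against 106.0 to 119.7 CPM, and Gad2 at 98.8 and 95.2 CPM was below Het 1. The part of these markers in the results was not tested. In sorted pools, fewer cells of a type and less RNA per cell cannot be told apart.

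Kctd12 (ENSMUSG00000098557) is a compact gene of 6.1 kb at chr14:102976581-102982637 on the minus strand of GRCm38. Because the account turns on it, the 250 bases before its start (chr14:102982638-102982887, RefSeq promoter table for GRCm38.p6) are shown 5′ to 3′ on the strand of the gene, with capitals marking the GC box letters GGGCGG and their reverse complement CCGCCC.
Kctd12: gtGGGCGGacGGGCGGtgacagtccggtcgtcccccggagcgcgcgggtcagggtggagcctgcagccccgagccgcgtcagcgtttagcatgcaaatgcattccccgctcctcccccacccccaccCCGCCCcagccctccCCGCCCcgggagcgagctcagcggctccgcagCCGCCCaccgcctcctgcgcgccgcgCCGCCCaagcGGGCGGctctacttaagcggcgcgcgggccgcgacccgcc
This stretch held 7 GC boxes, with first bases at −248, −240, −123, −108, −76, −50 and −40 from the start, and none overlapped another. Of 32851 promoters of the same length, 32.7% held at least 1 GC box on either strand and 0.411% held 7 or more. It was 77.6% G and C with 36 CpG dinucleotides, against medians of 52.4% and 6 over all promoters. The table held 8 of the 10 genes, all but Kctd16 and Kctd12b. Among these, the Gabbr2 promoter was the only other one with so many CpGs (37, at 80.8% G and C), and it held 2 GC boxes, as did those of Gabbr1 and Kcnj5. Neither the TATA box TATAAA (12.4% of all promoters) nor the CCAAT box CCAAT (33.8%) was in the Kctd12 window on either strand. Such matches describe the letters of the window and not a bound site.

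Kctd12 was at 193.8, 195.5 and 191.1 CPM in wt, at 179.2, 174.7 and 175.2 CPM in Het, and at 131.0 and 125.4 CPM in KO libraries 1 and 2. The 3 genotypes did not overlap, and libraries of the same genotype lay within a few CPM of each other. A choice by the smallest p-value favours both traits. Among all genes, libraries did not overlap for 23.7% in KO and wt, 11.5% in Het and wt, and 19.8% in KO and Het. The means were 193.5 ± 2.2 CPM (SD, n = 3), 176.3 ± 2.44 CPM (SD, n = 3) and 128.2 ± 3.93 CPM (SD, n = 2), from between 1742 and 8264 counts per library. The KO mean was 0.663 times that of wt, a log2 fold change of −0.59 ± 0.10 (SE). With 1 floxed allele the log2 fold change of Kctd12 was −0.13 ± 0.09 (SE), which did not pass the test (edgeR, adjusted p = 0.942) and shares its wt libraries with the contrast that chose the gene.

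Between KO and Het, the log2 fold change of Kctd12 was −0.46 ± 0.10 (SE), or 0.727 times. The 2 tools differed here. The adjusted p was 0.717 in edgeR and 0.00265 in DESeq2, in which Kctd12 was the 1 gene called of 23692 (0.00422%). The libraries labelled KO also chose the gene, so neither p is independent of the choice.

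**Figure D1:**
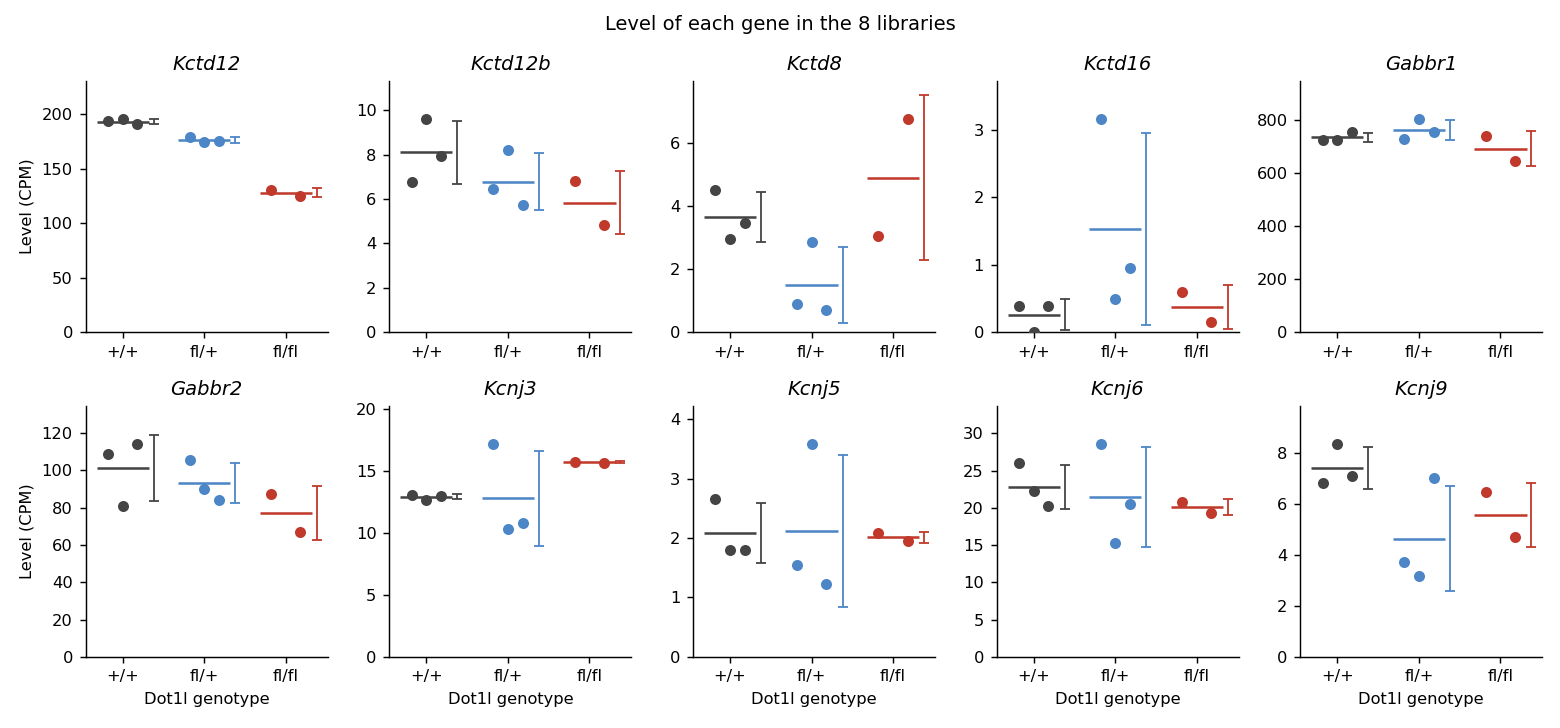
Level of each of the 10 genes in CPM (vertical axes, from 0, each gene on its own scale) in the 8 libraries, by Dot1l genotype (horizontal axes). Points are libraries, horizontal lines are group means and the bars beside them are ± 1 SD (n = 3, 3 and 2). Kctd12 steps from 191.1 to 195.5 CPM in +/+ through 174.7 to 179.2 CPM in fl/+ to 125.4 and 131.0 CPM in fl/fl, whereas Gabbr1 stays between 645.1 and 803.6 CPM with overlapping genotypes.

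A lincRNA gene on the opposite strand, Gm26778, covers 62.8% of the exon bases of Kctd12. Gm26778 was at 2.00 CPM at most in any library, against at least 125.4 CPM for Kctd12. The library kit kept the strand, but the strand setting of the counting was not given in the sources used here. Gm26778 lies wholly within the span of Kctd12, so without that setting its low count does not show how much of it was transcribed. Kctd12 also hosts the miRNA gene Mir5130, which takes up 1.4% of its exon bases.

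Kctd12 carried most of the RNA of its family. Levels between genes were compared per kilobase of exon (CPM per kb), and on that scale Kctd12 made up 91.9% ± 0.0339 (SD, n = 3) of the summed level of the 4 KCTD genes in wt. Its share was 92.8% ± 1.61 (SD, n = 3) in Het and 88.5% ± 1.77 (SD, n = 2) in KO. The single libraries were at 91.9%, 91.9% and 92.0%, then 92.2%, 91.5% and 94.6%, then 89.7% and 87.2%. Both libraries labelled KO were below all others, a description that shares the values that chose Kctd12.

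The other KCTD genes were low. Kctd12b (ENSMUSG00000041633, chrX:153685154-153696391), the closest relative of Kctd12, was at 6.75, 9.59 and 7.96 CPM in wt, at 6.45, 8.19 and 5.73 CPM in Het, and at 6.83 and 4.82 CPM in KO. All 3 genotypes overlapped. The log2 fold change was −0.47 ± 0.32 (SE) in KO against wt and did not pass the test (edgeR, adjusted p = 0.703). It was −0.75 without KO 1 and −0.25 without KO 2. Here and below, values without KO 1 or KO 2 rest on a single KO library.

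Kctd8 (ENSMUSG00000037653, chr5:69109285-69341679) was at 4.52, 2.96 and 3.47 CPM in wt, at 0.907, 2.88 and 0.703 CPM in Het, and at 3.06 and 6.77 CPM in KO. The Het libraries were below both other genotypes without overlap, although Het 2 came within 0.1 CPM of the lowest wt library. The log2 fold change was −1.28 ± 0.51 (SE) in Het against wt (edgeR, adjusted p = 0.94) and 1.71 ± 0.56 (SE) in KO against Het (edgeR, adjusted p = 0.998). In KO against wt it was 0.43 ± 0.55 (SE, adjusted p = 0.909), and its sign turned to −0.25 without the library labelled KO 2. With 1 library left out, the Het against wt value ran from −2.17 to −0.94. These values rest on 20 to 150 counts per library.

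Kctd16 (ENSMUSG00000051401, chr18:40256962-40531630) was near the limit of detection, with 10, 0 and 17 counts in wt, 94, 14 and 27 in Het, and 11 and 2 in KO. In CPM these were 0.386, 0 and 0.393, then 3.16, 0.492 and 0.949, then 0.601 and 0.144. The 0 in wt 2 allows up to 3 counts, or 0.0854 CPM in that library, by counting error alone. All Het libraries were above those of wt, most of it from Het 1, and the log2 fold change of 2.55 ± 1.3 (SE) did not pass the test (edgeR, adjusted p = 0.94) and was 1.46 without Het 1.

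The receptor subunits were the most abundant of the set together with Kctd12. Gabbr1 (ENSMUSG00000024462, chr17:37045966-37075067) was at 727.1, 724.2 and 756.0 CPM in wt, at 730.6, 803.6 and 756.0 CPM in Het, and at 739.6 and 645.1 CPM in KO. The genotypes overlapped, and the lowest value was in the library labelled KO 2. The log2 fold change in KO against wt was −0.09 ± 0.09 (SE, edgeR, adjusted p = 0.841), and an interval of 2 SE to either side ran from −0.26 to 0.08. In Het against wt it was 0.05 ± 0.08 (SE, adjusted p = 0.997).

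Gabbr2 (ENSMUSG00000039809, chr4:46662305-46991873) was at 108.9, 81.1 and 114.2 CPM in wt, at 105.4, 90.0 and 84.3 CPM in Het, and at 87.2 and 66.7 CPM in KO. The library labelled KO 2 was the lowest of all, whereas that labelled KO 1 was above wt 2. Of the 9 genes other than Kctd12, Gabbr2 was the 1 gene with an unadjusted p under 0.05 in KO against wt, where 9.27% of all genes had one (4.24% higher and 5.03% lower). Its log2 fold change was −0.40 ± 0.15 (SE) and did not pass the adjusted threshold in edgeR (adjusted p = 0.372) or in DESeq2 (adjusted p = 0.163). Its size rested on single libraries, at −0.22 without the library labelled KO 2 and −0.60 without KO 1.

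The ratios between subunits followed these levels. Per kilobase, Gabbr1 was 6.38 ± 1.13 times Gabbr2 in wt (SD, n = 3), 7.13 ± 1.00 times in Het (SD, n = 3) and 7.81 ± 0.724 times in KO (SD, n = 2), and the libraries of the genotypes overlapped. Kctd12 was 0.337 ± 0.0116 times Gabbr1 in wt, 0.297 ± 0.0178 times in Het and 0.238 ± 0.0157 times in KO, without overlap. Against Gabbr2, the subunit its protein binds, Kctd12 was at 2.16 ± 0.439, 2.11 ± 0.212 and 1.87 ± 0.295 times, with overlap. The KO and wt values of Kctd12 chose it, so its ratios are a description.

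**Figure D2:**
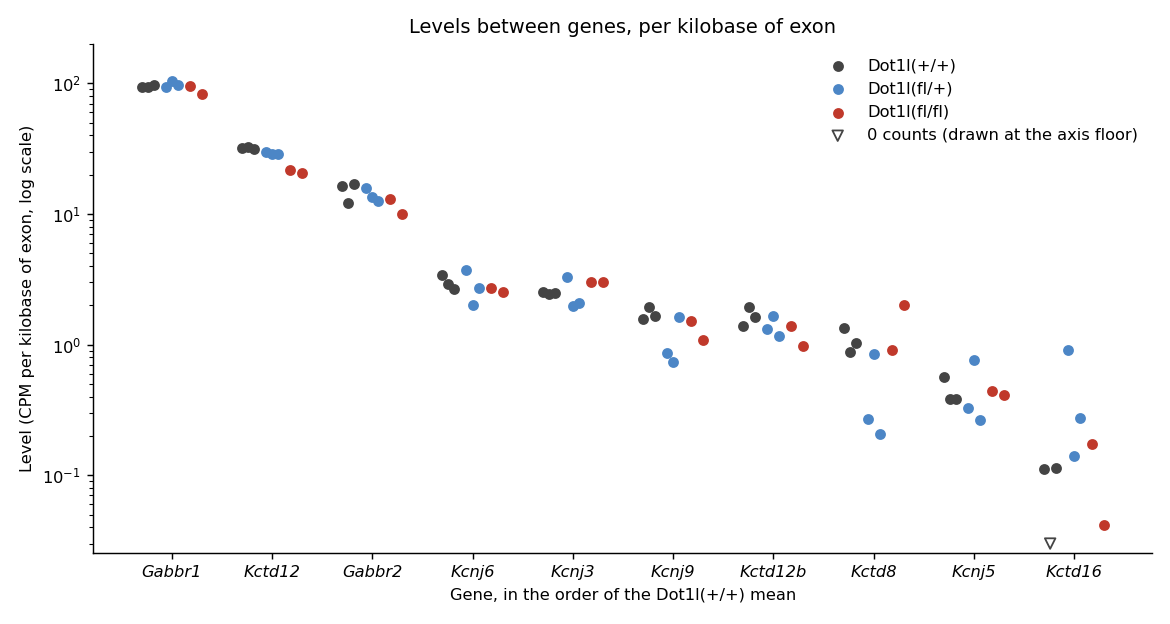
Level of the 10 genes per kilobase of exon (vertical axis, CPM per kb, log scale) in the 8 libraries, with genes in the order of their wt (Dot1l(+/+)) mean and genotypes in colour. The open triangle is the wt library with 0 counts for Kctd16. Gabbr1, Kctd12 and Gabbr2 sit at 9.98 CPM per kb or more in every library, and the GIRK and other KCTD genes at 3.75 CPM per kb or less.

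The order of the levels per kilobase in wt began with Gabbr1 at 94.8 ± 2.26 CPM per kb (SD, n = 3), above 97.8% of the genes tested. Kctd12 followed at 31.9 ± 0.363 CPM per kb, above 90.0%, and Gabbr2 at 15.2 ± 2.65 CPM per kb, above 78.3%. The GIRK genes Kcnj6, Kcnj3 and Kcnj9 came next at 2.99 ± 0.385, 2.48 ± 0.0393 and 1.73 ± 0.191 CPM per kb. Kctd12b was at 1.65 ± 0.290, Kctd8 at 1.08 ± 0.235, Kcnj5 at 0.445 ± 0.107 and Kctd16 at 0.0747 ± 0.0647 CPM per kb, the last above 4.93% of the genes tested. Of neighbours in this order, Kcnj9 and Kctd12b did not differ beyond the spread of the 3 libraries, and the other pairs did not overlap. The order differed in KO. Kcnj3, at 3.02 and 3.00 CPM per kb, was above Kcnj6, at 2.73 and 2.54 CPM per kb. The mean of Kctd8 was above those of Kcnj9 and Kctd12b, whose libraries overlapped those of Kctd8. That mean came from 0.9075 CPM per kb in KO 1 and 2.006 CPM per kb in KO 2. Among Het libraries, those of Kcnj6 and Kcnj3, Kcnj9 and Kctd12b, Kctd8 and Kcnj5, and Kcnj5 and Kctd16 overlapped.

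The GIRK channel genes were expressed at low levels and none passed the test. Kcnj6 (ENSMUSG00000043301, chr16:94748636-94997701), which encodes GIRK2, was at 26.1, 22.2 and 20.3 CPM in wt, at 28.6, 15.3 and 20.5 CPM in Het, and at 20.8 and 19.4 CPM in KO. The Het libraries spanned more than both other genotypes. Its log2 fold change was −0.18 ± 0.23 (SE) in KO against wt (edgeR, adjusted p = 0.9), and it was −0.08 without wt 1.

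Kcnj3 (ENSMUSG00000026824, chr2:55435970-55598145), which encodes GIRK1, was at 13.1, 12.7 and 13.0 CPM in wt, at 17.2, 10.3 and 10.8 CPM in Het, and at 15.74 and 15.62 CPM in KO. It was the 1 gene of the 9 with both libraries labelled KO above wt (23.7% of all genes had KO and wt libraries without overlap, 12.1% with KO higher), and its Het libraries lay on both sides. The log2 fold change of 0.28 ± 0.24 (SE) did not pass the test (edgeR, adjusted p = 0.81). An antisense lincRNA gene, Gm26794, covers 31.1% of its exon bases and was at 0.288 to 3.99 CPM.

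Kcnj9 (ENSMUSG00000038026, chr1:172320501-172329318), which encodes GIRK3, was at 6.79, 8.34 and 7.10 CPM in wt, at 3.73, 3.16 and 6.99 CPM in Het, and at 6.45 and 4.68 CPM in KO. Both libraries labelled KO were below wt, and Het overlapped wt through Het 3. The log2 fold change was −0.41 ± 0.37 (SE) in KO against wt (edgeR, adjusted p = 0.82) and −0.68 ± 0.32 (SE) in Het against wt (edgeR, adjusted p = 0.94). The first was −0.67 without KO 1 and −0.20 without KO 2, and the second was −1.10 without Het 3.

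Kcnj5 (ENSMUSG00000032034, chr9:32314707-32344350), which encodes GIRK4, was at 2.66, 1.79 and 1.80 CPM in wt, at 1.55, 3.58 and 1.23 CPM in Het, and at 2.08 and 1.94 CPM in KO. All genotypes overlapped, and the log2 fold change of −0.05 ± 0.63 (SE) in KO against wt leaves a wide interval of −1.31 to 1.21 at 2 SE.

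Within the GIRK family, Kcnj6 made up 39.1% ± 2.82 of the level per kilobase in wt (SD, n = 3), Kcnj3 32.5% ± 1.91, Kcnj9 22.7% ± 2.88 and Kcnj5 5.79% ± 1.09. In KO these shares were 35.8% ± 0.414 (SD, n = 2), 40.9% ± 2.35, 17.5% ± 2.86 and 5.83% ± 0.0936. Kcnj6 was 1.36, 1.20 and 1.07 times Kcnj3 in wt, 1.14, 1.01 and 1.29 times in Het, and 0.904 and 0.847 times in the libraries labelled KO. The ratio was therefore under 1 in those libraries alone, in a comparison of 2 libraries with 6 that was not tested.

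**Figure D3:**
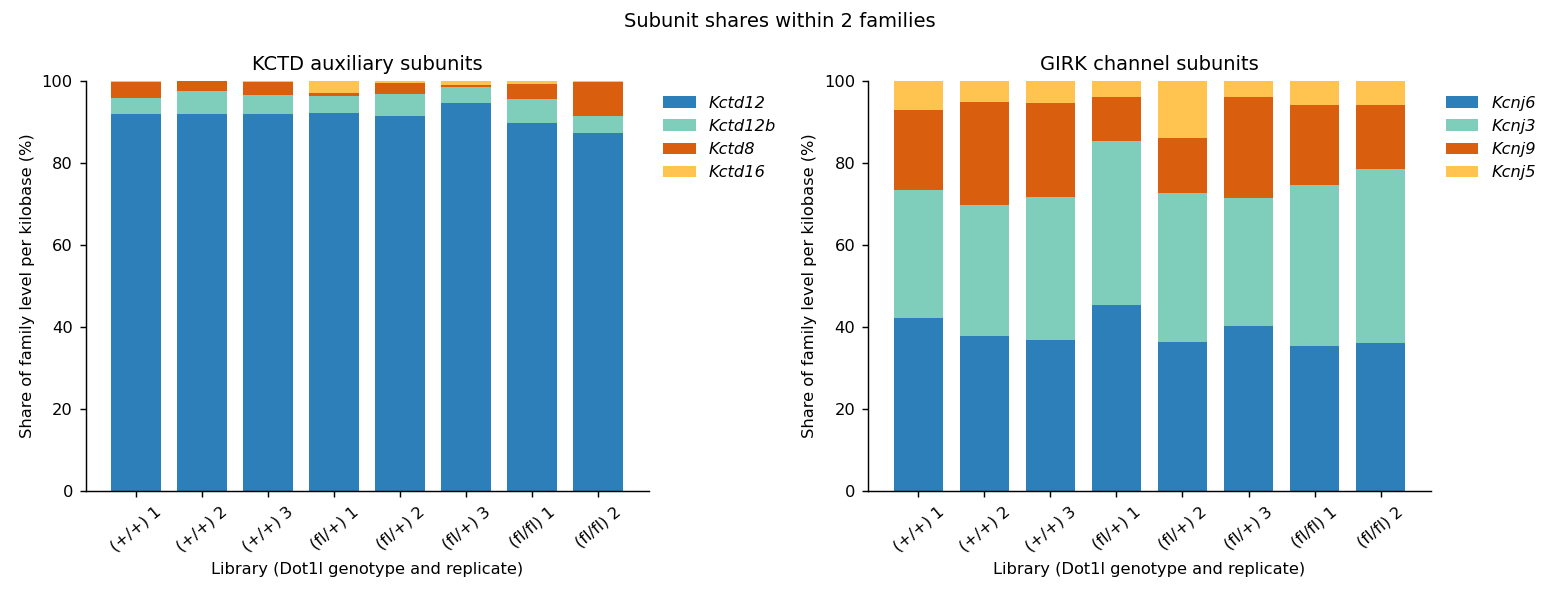
Share of each gene in the summed level per kilobase of its family (vertical axes, %) in each of the 8 libraries (horizontal axes), for the KCTD auxiliary subunits and the GIRK channel subunits. Kctd12 fills 87.2% to 94.6% of the KCTD bars, and Kcnj3 takes the largest part of the GIRK bars in the 2 libraries labelled fl/fl (39.2% and 42.6%).

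Over the 9 genes other than Kctd12, 3 were higher and 6 lower in KO than in wt, with a median log2 fold change of −0.09 against −0.003 for all genes. No gene of the 9 passed an adjusted p of 0.05 in edgeR (0.0% of all genes did), with adjusted p-values from 0.372 to 0.994. An unadjusted p under 0.05 was found for 1 of 9, near the background. Libraries did not overlap for Kcnj3, which was higher, and for Kcnj9, which was lower (11.6% of all genes). In DESeq2, 2 of the 9 genes had an adjusted p, Gabbr1 (0.632) and Gabbr2 (0.163), and neither was called (2.6% of the genes with an adjusted p were). DESeq2 gave the other 7 no adjusted p.

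Over all 10 genes in Het against wt, 3 were higher and 7 lower, with a median log2 fold change of −0.10 against −0.007 for all genes. None passed an adjusted p of 0.05 in edgeR (0.0% of all genes did) or in DESeq2 (0.0%), and 2 of 10, Kctd8 and Kcnj9, had an unadjusted p under 0.05 (5.02% of all genes). Libraries did not overlap for Kctd16, which was higher (5.56% of all genes), and for Kctd12 and Kctd8, which were lower (5.97%). In KO against Het, none passed in edgeR (0.0%). Kctd8 had an unadjusted p under 0.05, beside 4.02% of all genes (1.86% higher and 2.16% lower). Kctd12 had one as well, but the libraries labelled KO chose it, so it does not count beside that share. Libraries of KO and Het did not overlap for 19.8% of all genes, and for Kctd8, which was higher (10.2%), and Kctd12, which was lower (9.57%). These comparisons share libraries pairwise and are not independent of each other. Both also share libraries with the contrast that chose Kctd12, so its lack of overlap here is a description.

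**Figure D4:**
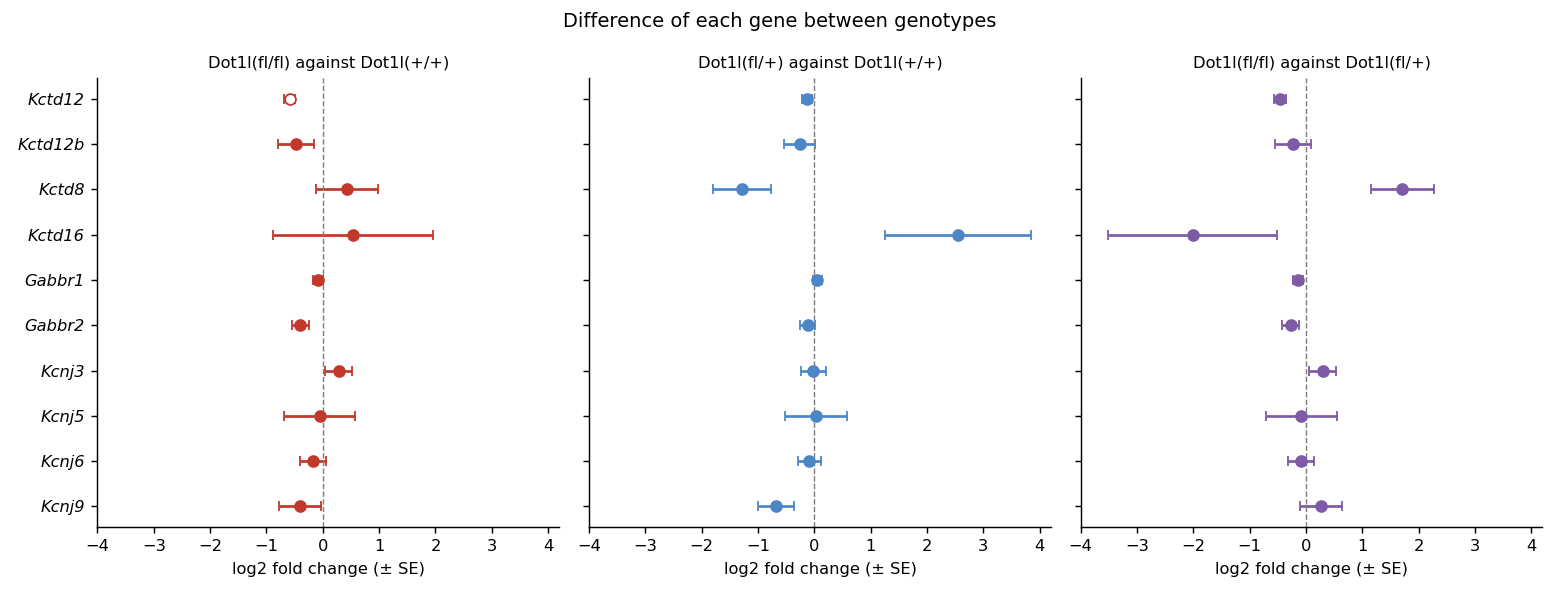
Log2 fold change (horizontal axes) of the 10 genes (vertical axis) in the 3 comparisons of genotypes, with bars of ± 1 SE from the edgeR fit. The open point is Kctd12 in the comparison that chose it, at −0.59. Bars are narrow for Kctd12, Gabbr1 and Gabbr2 and widest for Kctd16, with SEs of 1.3 to 1.5.

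The wider pathway was taken from 10 lists of 109 genes, of which 98 were tested. In KO against wt none passed an adjusted p of 0.05 in edgeR, and 14 had an unadjusted p under 0.05, with 5 higher and 9 lower, which is 14.3% of those tested beside 9.27% of all genes. In Het against wt there were 5 (5.1% beside 5.02%), and in KO against Het there were 6 (6.12% beside 4.02%). Since none passed the adjusted threshold, the genes below are given by their values. As background for them, libraries did not overlap for 23.7% of all genes in KO and wt, 11.5% in Het and wt, and 19.8% in KO and Het.

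The G protein subunits that link receptor and channel ranged from genes near 0 CPM, such as Gnb3 and Gng11, to some of high level, of which the 2 highest per list are given. Gnao1, the main Go alpha subunit of neurons, was at 594.5 ± 62.1 CPM in wt (SD, n = 3) and 547.5 ± 4.90 CPM in KO (SD, n = 2), and Gnai3, a Gi alpha subunit, at 179.1 ± 13.1 and 189.7 ± 2.35 CPM. None of the 5 Gi/o alpha genes had an unadjusted p under 0.05, and their median log2 fold change was −0.12. Gnb1 was at 1115 ± 18 and 1118 ± 84.4 CPM and Gnb2 at 585.0 ± 26.3 and 637.1 ± 107.6 CPM in the same 2 genotypes. Of the 5 G beta genes, Gnb5, the partner of R7 RGS proteins, had an unadjusted p under 0.05 (log2 fold change 0.37 ± 0.17, edgeR, adjusted p = 0.515). It was at 35.45 to 39.76 CPM in wt, at 36.59 to 49.26 CPM in Het, and at 58.27 and 39.45 CPM in KO libraries 1 and 2. The second of these lay within the range of wt. None of the 10 G gamma genes tested had an unadjusted p under 0.05. In wt and KO, Gng2 was at 923.5 ± 5.52 and 836.4 ± 68.9 CPM and Gng3 at 247.5 ± 6.62 and 272.0 ± 10.3 CPM.

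RGS proteins speed the turn-off of G proteins and so shorten GIRK currents. Of 17 RGS genes and anchors tested, 5 had an unadjusted p under 0.05 in KO against wt, with 2 higher and 3 lower. Rgs4 was at 25.1, 27.2 and 19.1 CPM in wt, at 21.5, 24.01 and 22.39 CPM in Het, and at 32.9 and 44.6 CPM in KO. Both libraries labelled KO were above all others (log2 fold change 0.70 ± 0.19, edgeR, adjusted p = 0.245). Rgs2 was at 91.3 and 121.2 CPM in KO against 80.6 to 90.3 CPM in wt (log2 fold change 0.32 ± 0.13, edgeR, adjusted p = 0.425). Its Het libraries were at 82.84 to 94.75 CPM, a range that held KO 1.

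Rgs8 was at 158.0, 150.9 and 150.1 CPM in wt, at 140.8, 144.6 and 142.1 CPM in Het, and at 116.4 and 123.2 CPM in KO (log2 fold change −0.35 ± 0.11, edgeR, adjusted p = 0.268). Its genotypes did not overlap, as for Kctd12, but both genes were named by their values in KO against wt. Rgs12 was at 120.9 to 122.4, 95.8 to 111.7, and 93.0 and 102.8 CPM in the same order (log2 fold change −0.31 ± 0.11, edgeR, adjusted p = 0.355).

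Adenylyl cyclases make cyclic AMP, and some types, but not all, are inhibited through Gi/o proteins. Of the 8 tested, 3 had an unadjusted p under 0.05. Adcy2 was at 29.0, 31.4 and 20.4 CPM in wt and at 40.3 and 43.6 CPM in KO, without overlap (log2 fold change 0.64 ± 0.19, edgeR, adjusted p = 0.268). Adcy1 was at 280.3 ± 48.2 CPM in wt (SD, n = 3) and 222.7 ± 27.2 CPM in KO (SD, n = 2), with a log2 fold change of −0.33 ± 0.12 (edgeR, adjusted p = 0.36). Its wt libraries, at 232.9 to 329.2 CPM, overlapped KO at 203.5 and 241.9 CPM. Adcy5 was at 179.1 ± 16.4 and 146.4 ± 4.19 CPM, with a log2 fold change of −0.29 ± 0.11 (edgeR, adjusted p = 0.377).

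Other receptors that act through Gi/o share the GIRK channels with GABA-B receptors, and 3 of the 21 tested had an unadjusted p under 0.05. Drd2, the dopamine autoreceptor of these neurons, was at 55.3, 57.5 and 50.02 CPM in wt, at 57.8, 45.8 and 40.9 CPM in Het, and at 41.1 and 35.5 CPM in KO. Both libraries labelled KO were below wt, and the first of them overlapped Het (log2 fold change −0.50 ± 0.16, edgeR, adjusted p = 0.289). Cnr1, the cannabinoid receptor CB1, was at 96.5 ± 5.64 CPM in wt (SD, n = 3) and 79.6 ± 2.88 CPM in KO (SD, n = 2), with a log2 fold change of −0.28 ± 0.12 (edgeR, adjusted p = 0.471). Sstr1, a somatostatin receptor, was at 11.7 and 16.9 CPM on average (log2 fold change 0.54 ± 0.25, edgeR, adjusted p = 0.522), and Oprl1, the nociceptin receptor, at 173.3 and 176.8 CPM.

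Among 6 partner proteins, Ajap1, which binds the extracellular part of the Gabbr1 protein, was at 142.7, 141.3 and 142.3 CPM in wt, at 119.5, 118.9 and 121.6 CPM in Het, and at 118.1 and 98.8 CPM in KO. The genotypes did not overlap, but KO 1 at 118.1 CPM was just below Het 2 at 118.9 CPM. The step from wt to Het was larger than the spread in both. The log2 fold change was −0.39 ± 0.11 in KO against wt (edgeR, adjusted p = 0.253) and −0.15 ± 0.11 in KO against Het (edgeR, adjusted p = 0.998). App, whose product also binds there, was at 1615 ± 78.9 CPM in wt (SD, n = 3) and 1636 ± 286.3 CPM in KO (SD, n = 2). Of the presynaptic calcium channels that GABA-B receptors inhibit, Cacna1b (N-type) was at 214.3 and 173.9 CPM on average (log2 fold change −0.30 ± 0.14, edgeR, adjusted p = 0.529), and Cacna1a (P/Q-type) at 85.1 and 82.7 CPM. For Cacna1b, wt at 161.9 to 263.3 CPM overlapped KO at 159.6 and 188.3 CPM, and Cacna1a overlapped too.

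The other KCTD genes, which are not known as GABA-B subunits, had no member of 16 tested with an unadjusted p under 0.05 in KO against wt, with 8 higher and 8 lower. Kctd13 was at 84.3 ± 8.19 and 76.8 ± 10.5 CPM and Kctd17 at 69.9 ± 4.58 and 77.8 ± 1.60 CPM in wt and KO. The other inward rectifiers also had none of 8, with 6 higher, 2 lower and a median log2 fold change of 0.40. Several of them were near 0 CPM, so this median says little. Kcnj4 was at 0.0474 CPM in wt (log2 fold change 2.68 ± 2.77, SE) and Kcnj8 at 0 CPM in KO (−5.95 ± 3.85, SE). Kcnj11, a KATP channel subunit, was at 7.15 ± 0.609 and 6.92 ± 2.44 CPM, and Kcnj12 at 7.55 ± 0.398 and 8.71 ± 2.75 CPM.

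**Figure D5:**
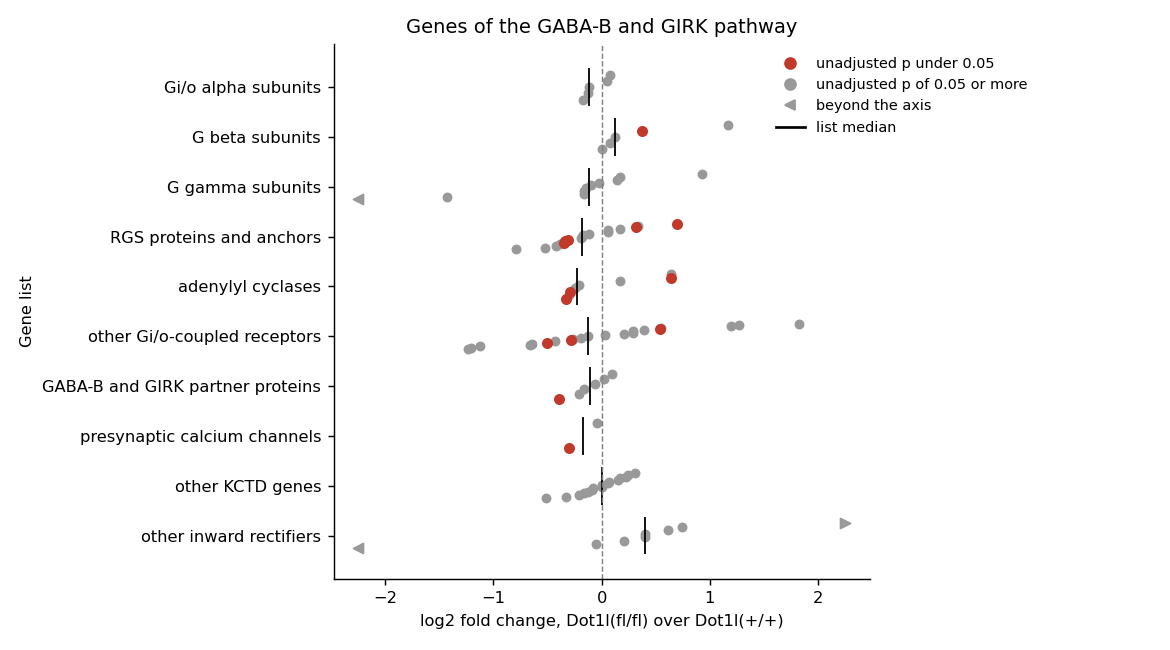
Log2 fold change in Dot1l(fl/fl) over Dot1l(+/+) (horizontal axis) of the 98 pathway genes tested, by list (vertical axis), with the list median as a black line. Red points have an unadjusted edgeR p under 0.05 (14 genes) and triangles lie beyond the axis. The medians of 9 of the 10 lists sit between −0.23 and 0.12. That of the other inward rectifiers, several of them near 0 CPM, is at 0.40. Red points stand on both sides of 0 among the RGS genes, the adenylyl cyclases and the receptors.

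The genes whose log2 level followed that of Kctd12 most closely over the 8 libraries, among 9953 genes with a mean of at least 10 CPM, were Ina (Pearson r = 0.968), Sobp (0.962) and Rgs8 (0.959). Ina, which encodes the neuronal intermediate filament alpha-internexin, was at 1352 to 1380 CPM in wt, at 1256 to 1314 CPM in Het, and at 1031 and 1086 CPM in KO. Sobp was at 192.0 to 202.6, at 175.1 to 177.8, and at 147.3 and 152.2 CPM. All 3 genes separated the genotypes without overlap, which their choice by likeness to Kctd12 favoured. Libraries did not overlap for 23.7% of all genes in KO and wt, 11.5% in Het and wt, and 19.8% in KO and Het. After removal of the genotype means the correlations were −0.80, −0.07 and −0.58. The likeness was thus seen between genotypes, which the choice of these genes favoured. Within genotypes Kctd12 varied by only a few CPM, so the correlations after that removal say little about likeness there.

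For Kcnj6 the closest were Abhd10 (r = 0.956), Tmem63c (0.934) and Slc33a1 (0.915), and these stayed at 0.961, 0.956 and 0.932 within genotypes. All were highest in Het 1 or wt 1 and lowest in Het 2. The points share libraries, depth and, for Kctd12, the contrast that chose it, so these values are descriptions with no test. Of the partners of Kctd12, Gabbr2 had the highest correlation with it (0.661), then Kctd12b (0.631) and Gabbr1 (0.535), and Kcnj3 the lowest (−0.468).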

How the data were processed

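RNA-seq data of 8 libraries were used, grouped by their titles. Raw read counts for each Ensembl gene are what the authors deposited. Per the labels' processing notes, bcl2fastq 2.17, Trimmomatic 0.30 and DESeq2 1.10.1 were used with GRCm38.p4. The aligner, the counter and its strand setting were not given in the sources used here. The authors' deposited comparison tables hold a mean signal per gene, log2 fold changes and p-values, of which the gene identifiers and symbols alone were used.

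Differences were tested in R 4.3.3 by edgeR 4.0.16 (quasi-likelihood, TMM, filterByExpr, 3 genotypes in 1 fit, no covariates, Benjamini-Hochberg adjustment over 17988 genes, threshold 0.05). SEs were the log2 fold change over the square root of F. Exon lengths were unions of GENCODE M21 exons. A count of 3, the limit that 0 allows, was 0.0694 to 0.216 CPM across libraries, for counting error only. Per the study's methods each litter gave a set of the genotypes, so libraries may be paired by litter, but no source used here ties replicate numbers to litters. P-values measure the spread between these pools. Libraries of a genotype differed beyond sampling noise (chi-square per degree of freedom of 17.8 or more), and the scripts were tested on simulated counts.

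The genes and lists were chosen with earlier results of these data known. Named from the lists were the 2 genes with the highest level per kilobase and up to 3 with an unadjusted p under 0.05 in KO against wt, and for Kctd12 and Kcnj6 the 3 genes with the highest correlation. Alternatives were RLE size factors, no filter, DESeq2 1.42.0, the 2 genotypes alone, a replicate block, a correction by exon length and GC, both together, and each library left out.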

Additional observations from a re-analysis of the deposited data

How the results depend on the processing

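No gene was called in any comparison by the edgeR fit, so the counts of calls depend on the setting. In KO against wt, 106 genes were called with no filter, 186 in DESeq2 and 8 with the length and GC offset. Leaving out 1 wt or Het library gave 0 to 75, with 75 without wt 2. Fits without KO 1 or KO 2 leave a single KO library, so their counts of calls are not given. In Het against wt, 11 genes were called with no filter. In KO against Het, 14 were called with no filter, 1 in DESeq2, which was Kctd12, and 0 to 7 with 1 library left out, with 7 without KO 1 and 7 without KO 2. What caused these shifts was not tested. A replicate block gave 6 and 4 called genes in the comparisons of KO with wt and Het, and 17 and 5 with the block and the offset together. Correlations of same-numbered libraries were −0.04 to 0.08, so the data do not show that the numbers mark shared litters, and the fit without the block was kept.

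Besides Kctd12 in DESeq2, and setting aside Kctd12 in the contrast that chose it, no gene of the 10 was called under any of these alternatives. Some log2 fold changes turned sign. In KO against wt, Kctd8 went to −0.03 with block and offset, and Gabbr1 to 0.025 with the offset and 0.02 with both. Kcnj5 in Het against wt went to −0.085 with the replicate block and −0.087 with both. With 1 library left out, values in KO against wt ran from −0.25 to 0.89 for Kctd8, −0.83 to 1.20 for Kctd16, −0.19 to 0.007 for Gabbr1 and −0.15 to 0.16 for Kcnj5. In Het against wt they ran from −0.29 to 0.12 for Kcnj3, −0.58 to 0.30 for Kcnj5 and −0.35 to 0.11 for Kcnj6. In KO against Het they ran from −0.50 to 0.009 for Kctd12b, −0.35 to 0.53 for Kcnj5 and −0.29 to 0.17 for Kcnj6. Depth limits Kctd16, Kcnj5 and Kctd8, whose counts fell to 0, 27 and 20 in single libraries.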
